A study of Homo sapiens with 6 samples.

Results

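The N-Myc-non-binding promoter table of this H3K4me3 study opens with 300 promoters, data rows 1 to 300 in deposited order of a table of 6331. They include 12 genes of an adrenergic neuroblastoma list (4.00%, against 0.478% of later promoters that also had a peak listed in both libraries), and 140 lie on 9 chromosome arms (46.7%, against 18.2%). The list was drawn up and the arms were grouped with values of these rows known. The 2 promoter tables together hold 9585. The authors named the tables as quantifying H3K4me3, but the columns used here give a transcription start site (TSS) and a gene name and no value. The members were chosen by their place in this order. What the order stands for is not stated, and it may come from the same H3K4me3 libraries as the peak lists.

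H3K4me3 was profiled by chromatin immunoprecipitation and sequencing in BE(2)-C cells, an established human neuroblastoma line in which MYCN is amplified. The cells were given WDR5 siRNA-1 or a control siRNA, each for 24 hours. Each siRNA had 1 H3K4me3, 1 IgG and 1 input library, so no comparison has replicates, and a single siRNA sequence was used against WDR5. Distinct genes with a peak within 1 kb of a TSS numbered 11870 with WDR5 siRNA and 13618 with control siRNA. Of 13 adrenergic neuroblastoma markers, 10 were listed in both libraries and 3 with control siRNA alone. Of 10 mesenchymal markers, 4 were listed in both and 5 with control siRNA alone, and of 8 Schwann cell markers 2 (ERBB3 and PMP22) were listed in both. Of 5 epithelial markers, KRT18 was listed, with control siRNA alone. None of 6 blood, 3 liver and 4 muscle markers was listed in either library.

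H3K4me3 is the trimethyl mark that MLL/SET1 methyltransferases with their WDR5 subunit place around the TSS of active genes. Promoters rich in the dinucleotide CpG usually carry it, because subunits of these methyltransferases bind unmethylated CpG. Sympathetic neuroblasts, from which neuroblastoma arises, are specified by a circuit of transcription factors that includes HAND2, PHOX2A and GATA3, and these factors remain expressed in adrenergic neuroblastoma.

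The promoter sequences of 9 of the 300 genes are shown because they span what was found. TLE1, INSM2 and HAND2 stood near the top of the table. RET, GATA3, PHOX2A and CHGA belong to the adrenergic lineage. AUTS2 had the most CpG of the 236 promoters with a sequence and CDC14A the fewest. Each is the RefSeq window from 250 bases before to 50 bases after the gene start, on GRCh38.p14, 5′ to 3′ on the gene's strand, with every CpG in capitals. The windows are chr9:81689498-81689797 (minus strand) for TLE1, chr14:35533914-35534213 (plus) for INSM2, chr4:173530180-173530479 (minus) for HAND2, chr10:43076819-43077118 (plus) for RET, chr10:8045083-8045382 (plus) for GATA3, chr11:72244127-72244426 (minus) for PHOX2A, chr14:92922900-92923199 (plus) for CHGA, chr7:69598225-69598524 (plus) for AUTS2 and chr1:100344751-100345050 (plus) for CDC14A. The deposited start sites are on hg19 and need not be the start that RefSeq takes for the gene.
TLE1: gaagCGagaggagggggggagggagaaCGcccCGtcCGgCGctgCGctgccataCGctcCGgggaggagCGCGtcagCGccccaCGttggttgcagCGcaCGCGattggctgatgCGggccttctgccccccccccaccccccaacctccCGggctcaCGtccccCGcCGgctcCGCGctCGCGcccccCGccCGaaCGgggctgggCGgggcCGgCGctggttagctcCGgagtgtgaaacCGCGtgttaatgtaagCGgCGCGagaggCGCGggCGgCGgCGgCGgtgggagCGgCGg
INSM2: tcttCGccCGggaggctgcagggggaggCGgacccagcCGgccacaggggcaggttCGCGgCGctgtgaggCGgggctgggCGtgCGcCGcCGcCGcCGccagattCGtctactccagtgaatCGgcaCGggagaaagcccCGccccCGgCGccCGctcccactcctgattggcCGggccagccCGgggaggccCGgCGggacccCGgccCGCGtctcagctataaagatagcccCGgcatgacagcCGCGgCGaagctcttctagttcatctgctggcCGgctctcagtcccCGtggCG
HAND2: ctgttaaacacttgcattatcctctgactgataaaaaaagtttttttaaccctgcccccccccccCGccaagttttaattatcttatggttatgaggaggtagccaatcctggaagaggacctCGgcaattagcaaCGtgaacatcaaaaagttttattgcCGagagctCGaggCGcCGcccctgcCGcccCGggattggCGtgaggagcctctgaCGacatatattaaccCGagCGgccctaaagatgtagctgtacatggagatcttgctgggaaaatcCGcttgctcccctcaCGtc
RET: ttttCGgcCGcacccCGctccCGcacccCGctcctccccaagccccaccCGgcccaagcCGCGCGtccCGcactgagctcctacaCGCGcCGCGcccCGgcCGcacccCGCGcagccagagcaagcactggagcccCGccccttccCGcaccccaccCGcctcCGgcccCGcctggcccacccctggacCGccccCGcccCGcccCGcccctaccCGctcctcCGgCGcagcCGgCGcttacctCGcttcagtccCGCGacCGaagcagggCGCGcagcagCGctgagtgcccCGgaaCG
GATA3: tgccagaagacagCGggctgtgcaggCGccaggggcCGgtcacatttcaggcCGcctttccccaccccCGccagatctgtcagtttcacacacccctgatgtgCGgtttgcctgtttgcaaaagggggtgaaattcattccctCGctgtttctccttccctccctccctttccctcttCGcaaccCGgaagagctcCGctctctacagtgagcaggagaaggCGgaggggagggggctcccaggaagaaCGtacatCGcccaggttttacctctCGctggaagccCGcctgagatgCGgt
PHOX2A: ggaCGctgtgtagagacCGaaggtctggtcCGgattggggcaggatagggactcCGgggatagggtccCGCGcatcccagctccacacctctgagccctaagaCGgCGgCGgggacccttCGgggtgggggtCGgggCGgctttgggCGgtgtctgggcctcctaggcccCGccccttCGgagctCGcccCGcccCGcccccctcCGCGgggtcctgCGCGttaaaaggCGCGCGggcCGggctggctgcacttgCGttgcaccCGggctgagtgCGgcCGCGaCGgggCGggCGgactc
CHGA: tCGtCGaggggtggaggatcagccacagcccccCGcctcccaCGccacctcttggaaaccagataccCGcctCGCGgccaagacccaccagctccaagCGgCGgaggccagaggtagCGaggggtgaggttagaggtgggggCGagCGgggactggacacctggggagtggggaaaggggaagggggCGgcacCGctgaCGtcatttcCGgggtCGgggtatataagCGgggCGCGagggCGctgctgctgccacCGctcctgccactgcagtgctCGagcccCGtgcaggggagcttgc
AUTS2: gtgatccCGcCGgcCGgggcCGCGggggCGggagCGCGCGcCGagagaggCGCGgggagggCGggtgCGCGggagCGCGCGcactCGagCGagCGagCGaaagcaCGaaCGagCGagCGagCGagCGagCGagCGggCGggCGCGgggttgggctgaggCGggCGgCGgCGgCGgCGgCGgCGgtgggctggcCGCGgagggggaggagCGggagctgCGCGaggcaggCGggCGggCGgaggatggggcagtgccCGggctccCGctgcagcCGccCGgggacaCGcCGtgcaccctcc
CDC14A: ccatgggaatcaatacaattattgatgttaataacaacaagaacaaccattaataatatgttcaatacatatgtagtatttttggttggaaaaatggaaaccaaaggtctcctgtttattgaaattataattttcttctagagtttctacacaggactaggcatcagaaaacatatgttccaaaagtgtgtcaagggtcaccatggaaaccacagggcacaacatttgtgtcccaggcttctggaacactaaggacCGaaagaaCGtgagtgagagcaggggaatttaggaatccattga
TLE1 has 44 CpG in its 300 bases, AUTS2 55, RET 41, INSM2 35, PHOX2A 34, CHGA 24, GATA3 16, HAND2 15 and CDC14A 2. The RefSeq windows of the same lineage thus include CpG-dense ones and ones with less than the median CpG number, given further on. Whether each window covers the deposited start site was not checked.

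Rows 1 to 10 held TLE1, RIMS2, DUSP4, INSM2, HOOK3, DAP3, HAND2, PPP1R9B, UBN1 and RNF170. TLE1 (chromosome 9, position 84303596 on hg19) encodes a Groucho-family co-repressor that DNA-binding factors recruit. RIMS2 (chromosome 8, position 104512976) encodes a scaffold of the presynaptic active zone, where vesicles are released. DUSP4 (chromosome 8, position 29208267) encodes a phosphatase that switches off MAP kinases. INSM2 (chromosome 14, position 36003248) encodes a zinc finger factor related to INSM1 of neuroendocrine cells. HAND2 (chromosome 4, position 174451378) encodes a basic helix-loop-helix factor needed for sympathetic neurons. The other genes encode a dynein adaptor (HOOK3), a mitochondrial ribosomal protein (DAP3), the spine protein spinophilin (PPP1R9B), a histone chaperone subunit (UBN1) and a ubiquitin ligase of the endoplasmic reticulum (RNF170).

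The edge at row 300 fell among genes with the same peak listing on either side. The last 5 rows inside it were CBLB, HTRA2, NUMB, RRAGD and ALCAM, and the first 5 beyond it were ANTXR2, MARS2, BYSL, KRTCAP2 and ARPC5. All 10 were listed in both libraries, so the peak calls showed no step at this edge.

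All 300 genes were listed with a peak in the WDR5 siRNA library and all 300 in the control library. Over the whole non-binding table, 47.7% of promoters were listed in both, and over the 2 tables together 62.4%. Of non-binding promoters with a control peak, 17.9% had none listed with WDR5 siRNA, and none of the 300 was among them. Because the row order may rest on the same libraries, the contrast may be part of how the 300 were chosen and supports nothing about them. The later rows held 2719 of 6031 promoters listed in both (45.1%), 34 listed with WDR5 siRNA alone (0.564%), 656 with control siRNA alone (10.9%) and 2622 in neither (43.5%). The run of genes listed in both reached far beyond row 300. The first 1528 rows held no other state, and MPP2 in row 1529 was the first gene listed with control siRNA alone. F8A1 in row 2573 was the first listed in neither library and TTC1 in row 3467 the first listed with WDR5 siRNA alone. The first 300 rows of the N-Myc-binding table were likewise all listed in both. A call in each library does not show that the H3K4me3 level was the same in each. Since every one of the 300 carried a call, the 2719 later promoters listed in both are the closer comparison.

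**Figure D1:**
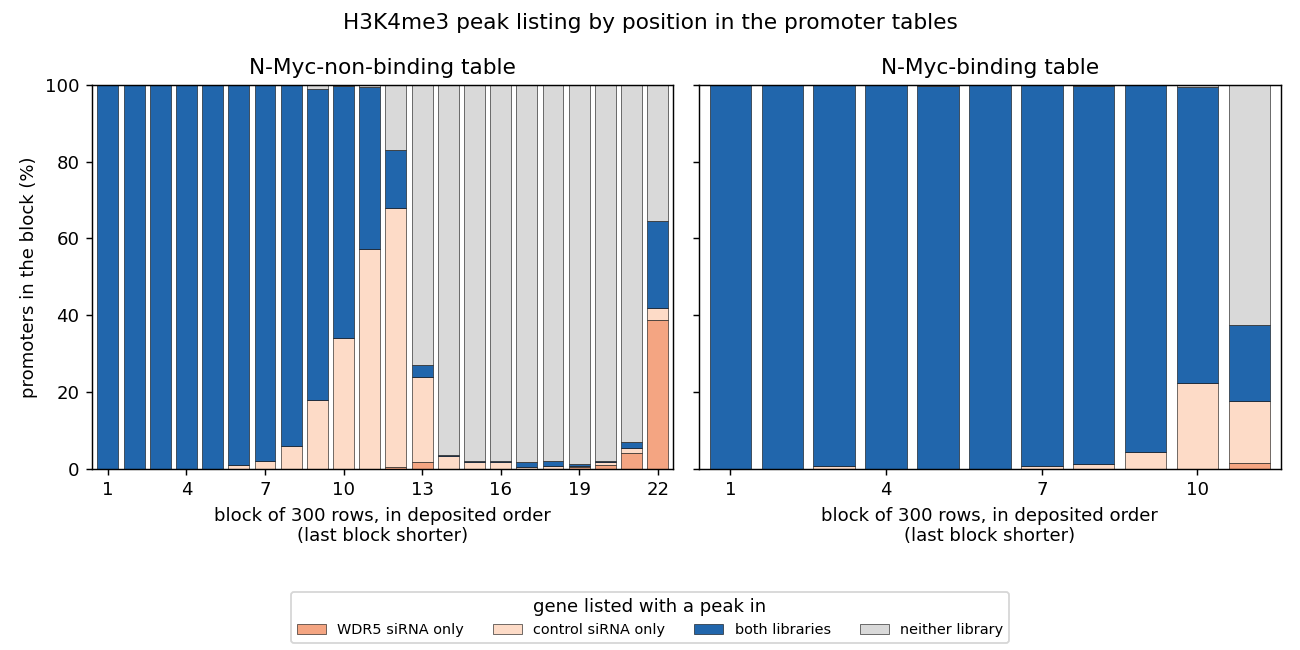
Peak listing of promoters in consecutive blocks of 300 rows, for the N-Myc-non-binding table (left) and the N-Myc-binding table (right), as a percentage of the block (y axis). Blocks run in deposited order on the x axis, and the first block, with 300 of 300 in both libraries, is followed by 4 further non-binding blocks of the same kind.

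Regulators and markers of adrenergic neuroblastoma were spread unevenly down the table. Of the 33 such genes in the non-binding table, 12 lay in rows 1 to 300, or 36.4% of the list against 4.74% of all promoters in the table. Of the 25 listed in both libraries the 12 made up 48.0%, against 9.94% of all promoters listed in both. Put as a share of each group, the list supplied 4.00% of the 300 (95% interval 2.08 to 6.88%), 0.348% of all later rows and 0.478% of later promoters listed in both. The next 300 rows held none of the list. The list was drawn up with earlier results of these rows known, so its count is a description.

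The transcription factors among these 12 include several of the lineage circuit. HAND2 was in row 7 and its paralogue HAND1 (chromosome 5, position 153857824) in row 47. GATA2 (chromosome 3, position 128212030) was in row 162 and GATA3 (chromosome 10, position 8096667) in row 284. PHOX2A (chromosome 11, position 71955220), which switches on noradrenergic genes, was in row 261. SIX3, a homeodomain factor of the forebrain and eye, was in row 216, and INSM2 in row 4.

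Other genes of the list encode proteins that differentiated cells or the tumour use. RET (chromosome 10, position 43572517), the receptor kinase for GDNF-family ligands, was in row 58. NEFL, the light neurofilament chain, was in row 80, and CHGA, the chromogranin of secretory granules, in row 251. AUTS2, a gene of neuronal development that also joins Polycomb complexes, was in row 51.

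The circuit did not sit together as a whole. ALK was in row 643, ISL1 in row 688 and INSM1 in row 762. CHGB was in row 2154. Each of these 4 was listed in both libraries. TBX2 was in row 18, PBX3 in row 28 and GNB1 in row 194 of the N-Myc-binding table. At the other end of the non-binding table lay MAPK8 (row 6303) and EYA1 (row 6319), listed with WDR5 siRNA alone, and SCG2 (row 6307) and RGS5 (row 6321), listed in both. Of the 33 list genes in the non-binding table, 2 were listed with control siRNA alone and 4 in neither library, all of them after row 300.

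Catecholamine synthesis was represented by its cofactor enzyme and by no other gene. GCH1 (chromosome 14, position 55369542), which makes the tetrahydrobiopterin that tyrosine hydroxylase needs, was in row 109. Tyrosine hydroxylase itself (TH, row 3449), DDC (row 3401) and DBH (row 2729) were listed with control siRNA alone. The transporter SLC18A2 (row 2796) was listed in both libraries. Of the 10 catecholamine genes in the table, 5 were listed in both and 2 in neither. Among 16 mesenchymal-state genes in the table, TWIST1 (row 23, chromosome 7, position 19157295) was the single one in the first 300. TWIST1 is a factor of mesoderm and neural crest. None of the 6 Schwann cell markers and none of the 10 blood, epithelial, liver and muscle markers in the table lay in these rows.

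Transcription factors of all the listed families together numbered 23 of 300 (7.67%, interval 4.92 to 11.3%). They made up 5.89% of all later rows (355 promoters) and 4.45% of later promoters listed in both (121). The difference from all later rows was 1.78 percentage points (interval -1.03 to 5.44), which spans 0, and that from later promoters listed in both was 3.22 (interval 0.345 to 6.91), which does not. Within the 300, 11 factors lay in the first 100 rows, 3 in the next 100 and 9 in the last 100.

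Single families can be read against the 4.74% of all promoters in the table, and the 9.94% of those listed in both, that lay in rows 1 to 300. They are small, and differences between them were not tested. GATA factors had 3 of their 6 table members in the first 300, with GATA4 (row 53), the heart and endoderm factor, beside GATA2 and GATA3. GATA6 was in row 1859, GATA5 in row 3316 and GATA1 in row 4836. Basic helix-loop-helix factors had 5 of 48, all within the first 100 rows, among them HAND2, TWIST1, TCF12 and HAND1. TCF12 is an E-protein that pairs with tissue-specific members such as HAND2. Homeobox factors had 5 of 133 (3.76%, and 11.6% of those listed in both), near the shares over all promoters, namely NKX6-1, ZEB1, SIX3, PHOX2A and IRX6, and no HOX cluster gene was among them. Of the Kruppel-like and SP factors, KLF10 (row 13) and KLF6 (row 252) were members, out of 8. SOX7 was the single SOX factor of 9, and no forkhead factor of 17 was a member.

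ZNF-type zinc finger genes supplied 10 promoters (3.33%, interval 1.61 to 6.04%), against 1.18% of all later rows and 2.28% of later promoters listed in both. They were ZNF263, ZNF622, ZNF664, ZNF276, ZNF282, ZNF12, ZNF778, ZNF142, ZNF689 and ZNF174. Most ZNF proteins bind DNA, many of them as repressors. Co-regulators supplied 6 (2.00%, interval 0.737 to 4.30%), against 0.580% of all later rows and 0.883% of later promoters listed in both. They included TLE1 and TLE4 of the Groucho family, the nuclear receptor partner NCOA2, NAB1, which restrains EGR factors, and RCOR1, the co-repressor that works with REST. The list of chromatin modifiers gave 4 (1.33%, interval 0.364 to 3.38%), against 0.431% of all later rows and 0.772% of later promoters listed in both. These were the methyltransferases SETD7 and SETD3 (SETD3 acts mainly on actin), the remodeller CHD7 and the acetyltransferase CREBBP. The next 300 rows held 6 co-regulators (2.00%), as many as rows 1 to 300, and 5 chromatin modifiers (1.67%). The first 300 N-Myc-binding rows held 1 co-regulator (0.333%) and 12 chromatin modifiers (4.00%). The lists go by symbol and are not complete. ASH1L (row 14), a histone methyltransferase that is in no list, also lay in these rows.

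Ion channels, neurotransmitter receptors, synapse, axon guidance, cadherin and neuronal cytoskeleton genes together made up 15 of 300 (5%, interval 2.83 to 8.11%), against 8.11% of all later rows and 7.39% of later promoters listed in both. The difference from all later rows was -3.11 percentage points (interval -5.40 to 0.0774), and that from later promoters listed in both was -2.39 (interval -4.81 to 0.864). Both intervals span 0. Differences between the separate neuronal lists were not tested.

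Channels and receptors gave 1 member. No neurotransmitter receptor of 111 in the table was a member, and the one ion channel gene of 108 was CACNA2D1, an auxiliary subunit of voltage-gated calcium channels. Synapse genes had 2 of 132, RIMS2 and SNAP91, a clathrin adaptor of synaptic vesicle recycling. For comparison, 29 neurotransmitter receptor and 70 synapse promoters listed in both lay further down.

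Cytoskeletal and guidance genes gave 11. Of 48 neuronal cytoskeleton genes 6 were members, namely the kinesin motors KIF1A, KIF21A and KIF5B, the growth cone protein DPYSL5, NEFL and the tubulin TUBB2B. That is 2.00% of the 300 (interval 0.737 to 4.30%), against 0.696% of all later rows and 1.10% of later promoters listed in both. Axon guidance had 5 of 52 (1.67% of the 300, interval 0.543 to 3.85%), against 0.779% of all later rows and 0.919% of later promoters listed in both. They were the netrin receptor UNC5C, the repulsive guidance molecule RGMB, the semaphorin receptor subunit PLXNA2, the ephrin EFNA5 and the Eph receptor EPHA6.

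G protein pathways had 12 of 151 genes by name, or 4.00% of the 300 (interval 2.08 to 6.88%), against 2.30% of all later rows and 1.77% of later promoters listed in both. They included the alpha subunits GNAQ and GNAI1, the beta subunit GNB2, protein kinase C alpha (PRKCA), the phosphodiesterase PDE7A and the calcium-calmodulin pathway kinases CAMKK2 and CAMK1D. GNB1L and GPR107 were counted by name, although GNB1L is no G protein subunit. Growth factor and receptor kinase genes had EGFR, FGFR1 and RET, 3 of 72 (4.17%, near the 4.74% of all promoters). EPHA6, also a receptor kinase, was counted under axon guidance. DUSP4 was the single one of 15 genes on the MAPK feedback list (6.67%). BAMBI, a decoy receptor of TGF-beta signalling, and NUMB, an inhibitor of Notch, were the members of 77 genes on the morphogen pathway list (2.60%). Ubiquitin pathway genes numbered 12 of 135, or 4.00% of the 300 (interval 2.08 to 6.88%), against 2.04% of all later rows and 2.76% of later promoters listed in both. Among them were the deubiquitinases USP9X, USP38, USP37 and USP3 and the ligase adaptor FBXW7, which targets N-Myc for degradation. The next 300 rows held 10 ubiquitin pathway genes (3.33%).

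Some large families were absent. None of 165 solute carrier genes was a member, although 55 of them were listed in both libraries. None of 501 genes of tissue-restricted families, such as olfactory receptors, keratins and interferons, was a member, and 33 of those were listed in both. Of 36 genes on the proteasome and chaperone list, PSMD1 was a member. The mitochondrial list of 46 held SDHA, but it goes by symbol and leaves out other mitochondrial genes of these rows, such as DAP3 (row 6) and MDH2 (row 27). By the letters before the first digit of the symbol, the 300 names had 253 different roots, and 8 roots occurred 3 times or more. The list definitions left 196 of the 300 in no list.

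**Figure D2:**
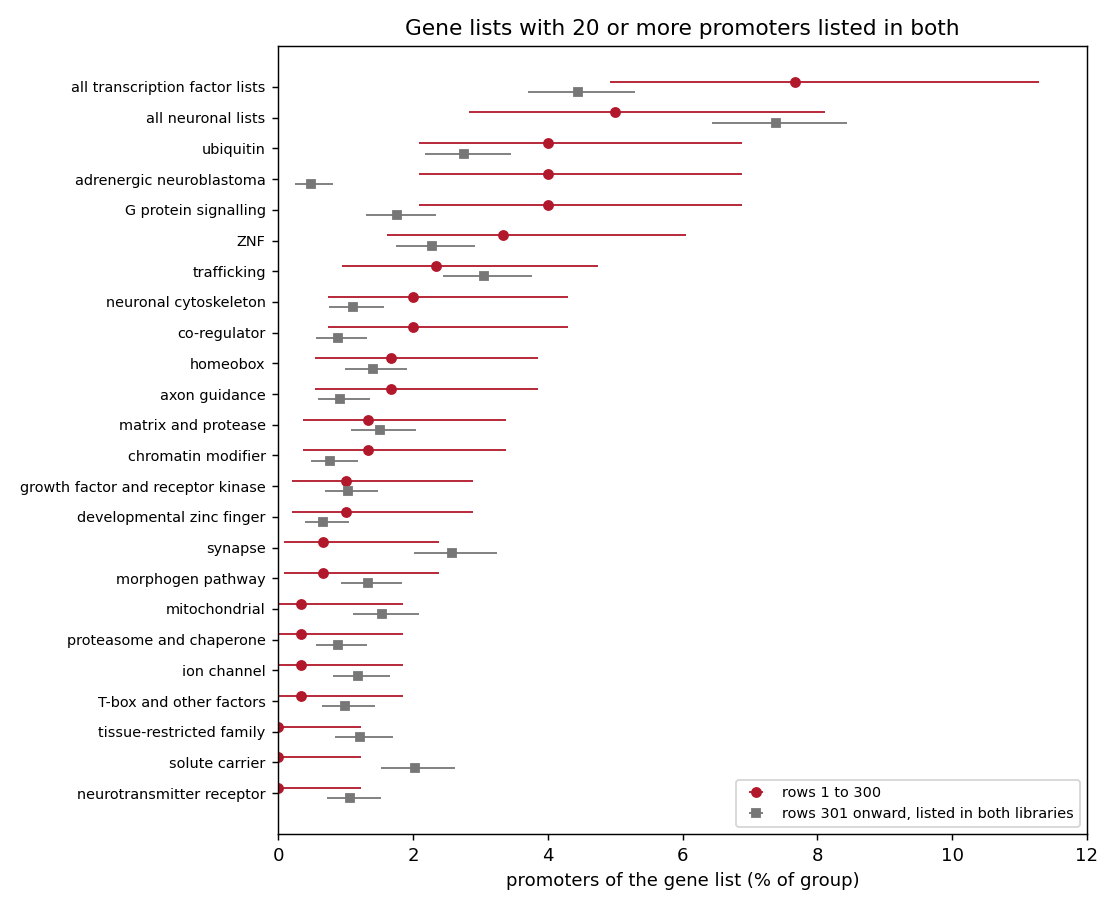
Promoters of each gene list as a percentage of rows 1 to 300 (circles) and of later non-binding promoters listed in both libraries (squares), for lists with 20 or more promoters listed in both. Bars are exact 95% intervals over promoters. The adrenergic list stood at 4.00% against 0.478%, and solute carriers at 0% against 2.02%.

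The chromosome arms were unevenly represented. On hg19, 19 of the 300 promoters lay on 8p, 16 on 8q and 25 on 9q. The arm 8p held 6.33% of the 300 (interval 3.86 to 9.71%), 1.58% of all later rows and 1.84% of later promoters listed in both. For 9q the shares were 8.33% (interval 5.47 to 12.1%), 2.70% and 2.57%, and for 8q 5.33% (interval 3.08 to 8.52%), 2.21% and 2.35%. The ratio to later promoters listed in both was 3.44-fold for 8p and 3.24-fold for 9q, and the next largest were 7p with 13 members (3.10-fold), 10p with 9 (2.81-fold), 16p with 12 (2.53-fold) and 22q with 12 (2.47-fold). With 8q, and with 7q and 2p, which had 17 members each, these 9 arms held 140 of the 300 (46.7%), against 17.5% of all later rows and 18.2% of later promoters listed in both. The intervals of 7p, 8p, 8q and 9q lay above those of later promoters listed in both, while those of 10p, 16p, 22q, 7q and 2p overlapped them. The arms were grouped after their values had been seen. The arm 1q, which is large, also had 19 members (1.54-fold). Within 3 Mb of an arm boundary lay 3 of the 300.

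Other arms had few members or none. No member lay on 11p or Xq, which held 74 and 113 later promoters listed in both. The arms 3p, 13q, 19q and Xp had 1 member each, and 1p and 11q had 3 each. Together these 8 arms held 10 of the 300 (3.33%), against 27.2% of all later rows and 27.7% of later promoters listed in both. They too were grouped for their low counts after the values had been seen, so the pooled share is a description. Smaller arms with 1 member (9p, 12p, 20p and 20q) or none (18p), and 15q with 4, are not in the group. On 1p, 3 of 177 promoters listed in both were members (1.69%), whereas on 8p 19 of 69 were (27.5%). The 3 on 1p include CDC14A, whose RefSeq window is printed above. PHOX2A was one of the 3 on 11q and USP9X the one on Xp. The arm 17q had 13 members (4.33%, interval 2.33 to 7.30%), against 3.23% of all later rows and 2.68% of later promoters listed in both. The differences were 1.10 percentage points (interval -0.962 to 4.09) and 1.65 (interval -0.469 to 4.67), and both intervals span 0. The next 300 rows held 17 promoters on 17q (5.67%).

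**Figure D3:**
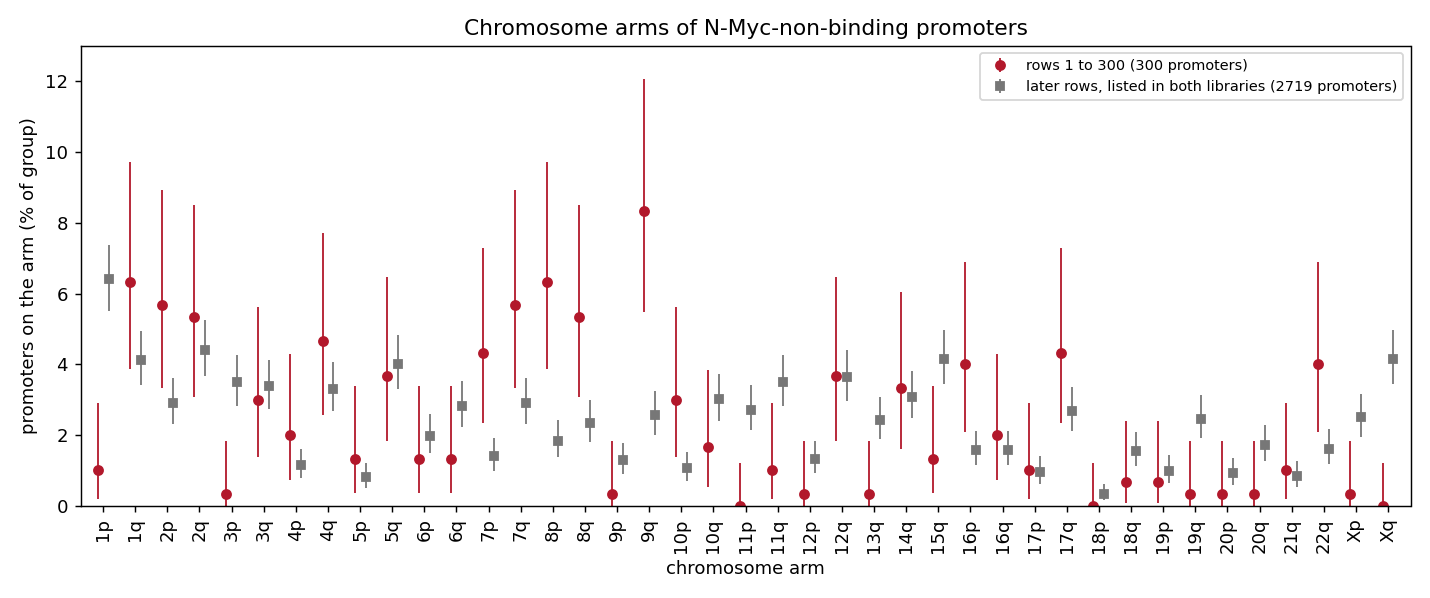
Share of promoters on each chromosome arm (x axis) in rows 1 to 300 (circles) and among later non-binding promoters listed in both libraries (squares), with exact 95% intervals over promoters. The circles lie above the squares on arms such as 8p (6.33% against 1.84%) and 9q (8.33% against 2.57%) and below them on arms such as 3p (0.333% against 3.49%).

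The arms changed in share down the table. In successive blocks of 300 rows, 8p held 19, 10, 9 and 4 promoters and 9q held 25, 13, 13 and 14. Not every arm in the group of 9 fell after the first block. The arm 8q held 16, 16, 14 and 11 promoters and 16p held 12, 12, 11 and 3. The excess on 8q and 16p was thus not particular to the first block. The remaining arms of the 9 held fewer promoters in the next block than in the first. In the same blocks 1p held 3, 9, 17 and 15, and Xq held 0, 1, 4 and 7. Within the 300, 8q had 10 promoters in the first 100 rows, 4 in the next 100 and 2 in the last 100, while 9q had 9, 7 and 9.

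The N-Myc-binding table, which shares no gene with the non-binding one, can be set beside it. Of its first 300 rows, 30 lay on 9q (10.0%, against 2.61% of its later rows) and 9 on 8p (3%, against 0.711%). None lay on 11p, 13q, 19q, Xp or Xq. Over 39 arms with at least 20 promoters listed in both and at least 20 N-Myc-binding promoters, the share of an arm's promoters in the first 300 rows had a Spearman coefficient of 0.725 and a Pearson coefficient of 0.759 between the tables. With non-binding promoters limited to those listed in both, Spearman's coefficient was 0.728. Arms are not replicates, and the order of both tables may come from the same libraries. On 16q, 12.2% of non-binding promoters listed in both were in rows 1 to 300 (interval 4.63 to 24.8%), and 28.6% of N-Myc-binding promoters were in the first 300 rows of their table (interval 19.2 to 39.5%). These intervals overlap.

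**Figure D4:**
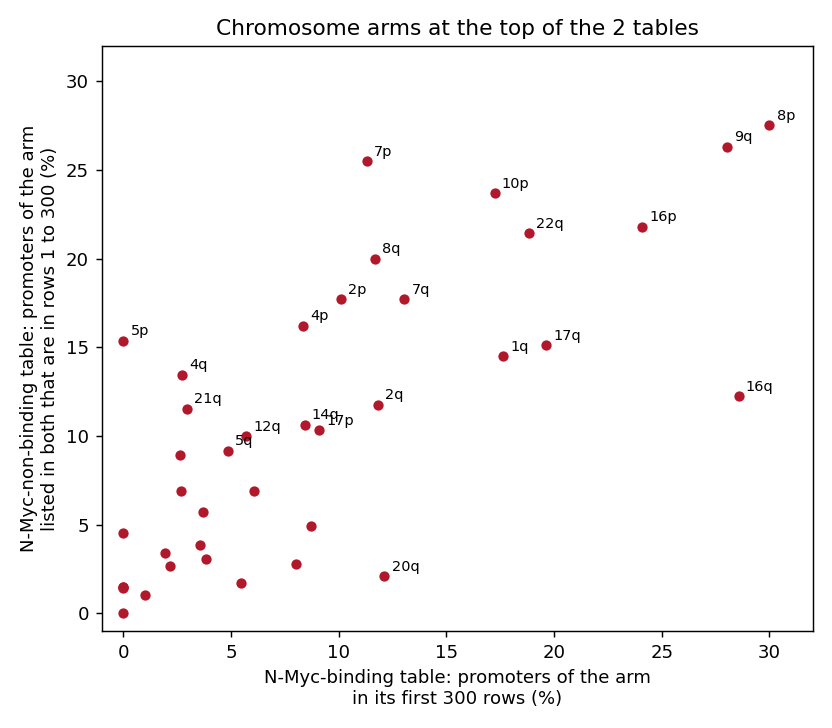
Each point is a chromosome arm. The y axis gives the percentage of its non-binding promoters listed in both libraries that are in rows 1 to 300, and the x axis the percentage of its N-Myc-binding promoters in the first 300 rows of that table. The arms 8p (y 27.5%, x 30%) and 9q (y 26.3%, x 28.0%) are the 2 above 25% on both axes, while 16q (y 12.2%, x 28.6%) is above 25% on the x axis alone.

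Within arms the members clustered in places. Windows of 10 Mb with a promoter numbered 306, of which 142 held a member and 10 held 5 or more. The one with most members was on chromosome 8 from 10 to 20 Mb, where 8 of 14 promoters listed in both were members (57.1%). These were PCM1, GATA4, ZDHHC2, XKR6, MTUS1, VPS37A, CNOT7 and SOX7. On chromosome 9 from 80 to 90 Mb, 6 of 9 were members (66.7%), among them TLE1, TLE4 and GNAQ. On chromosome 16 from 0 to 10 Mb, 7 of 19 were members, including UBN1 and CREBBP, and 11 of 35 N-Myc-binding promoters there were in the first 300 rows of their own table.

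Start sites close together shared their place in the table. Of the 300, 23 lay within 1 kb of another listed promoter (7.67%, interval 4.92 to 11.3%), against 2.62% of all later rows and 4.93% of later promoters listed in both. The share was not particular to these rows. The next 300 rows had 26 such promoters (8.67%, interval 5.74 to 12.4%) and the first 300 N-Myc-binding rows 53 (17.7%). For 22 of the 23 in rows 1 to 300 the neighbour was also in these rows, making 11 pairs. The remaining one was USP37, whose neighbour at 219 bp, RQCD1, was in row 429 of the N-Myc-binding table. VPS37A and CNOT7, 14 bp apart, were in rows 256 and 260. ITGB1BP1 and CPSF3, 23 bp apart, were in rows 28 and 31, and ZNF142 and BCS1L, 24 bp apart, in rows 239 and 243. HOOK3 and RNF170, 167 bp apart, were in rows 5 and 10. Some pairs further apart were spread more widely in the table, such as SETD3 and CCNK, 513 bp apart, in rows 75 and 265, and others were not, such as C16orf93 and RNF40, 632 bp apart, in rows 210 and 214.

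The same held for pairs outside the 300, which the rule did not use. Among neighbouring promoters that were both listed in both libraries and both after row 300, the median row gap was 3 for 34 pairs at most 200 bp apart and 16 for 32 pairs from 200 bp to 1 kb apart. It was 781 for 39 pairs from 1 to 10 kb apart and 841 for 723 pairs from 100 kb to 1 Mb apart. For pairs with 1 or both promoters in the 300, the medians were 4 (5 pairs), 58 (6 pairs), 598 (6 pairs) and 878 (165 pairs) at the same distances. Close pairs are thus not independent entries of the table, and intervals over promoters are too narrow for them.

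**Figure D5:**
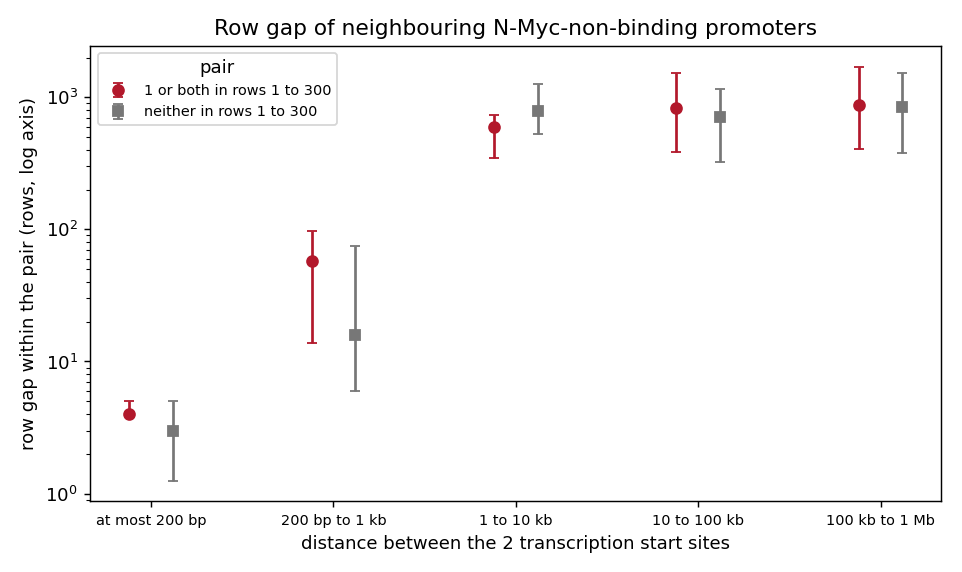
Row gap between neighbouring promoters of the non-binding table that were both listed in both libraries (y axis, log scale) by the distance between their start sites (x axis). Points are medians and bars run from the lower to the upper quartile, for pairs with 1 or both promoters in rows 1 to 300 (circles) and for the other pairs (squares). Medians at up to 200 bp were 4 and 3 rows, and from 1 to 10 kb 598 and 781 rows.

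The RefSeq windows of the 300 were dense in CpG. No window was available for chromosome 8 members such as RIMS2, DUSP4, GATA4 and NEFL, and that chromosome held 35 of the 300. The CpG and motif values therefore describe the 236 windows, and they under-represent chromosome 8 or leave it out. Over the 236 with a RefSeq window, the median was 31.5 CpG in 300 bases (quartiles 23 and 38.3). It was 19 over 4743 later promoters and 27 over the 2205 later promoters listed in both. The difference from later promoters listed in both was 4.50 CpG (interval 2.00 to 6.30). Windows with fewer than 10 CpG numbered 11 of 236 (4.66%, interval 2.35 to 8.19%), against 34.4% of all later rows and 8.07% of later promoters listed in both. The GC content had a median of 69.7%, against 61.7% and 66.3%. As the printed sequences show, the range over the 236 windows ran from 2 CpG in CDC14A to 55 in AUTS2. Windows were taken by gene and not by deposited start site, so a low count need not describe the deposited promoter. The next 300 rows had a median of 30 CpG, so the density did not drop at row 300.

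Motif content was counted on both strands of the same windows, and the genes named for a motif were picked with their values known. The canonical E-box CACGTG, to which MYC-family proteins bind, was present in 20 of 236 windows (8.47%, interval 5.25 to 12.8%). It was present in 6.11% of the windows of all later rows, in 6.98% of later promoters listed in both and in 7.26% of all 35116 RefSeq windows. In the N-Myc-binding table it was present in 15% of 2716 windows. UBN1, STK25, TCF12, TMEFF2 and RELN were the first 5 of the 20 by row, and none of the 9 printed windows held it. The wider E-box CANNTG, which includes CACGTG, was present in 54.2% of the windows, against 65.7% of all later rows and 56.9% of later promoters listed in both. Among all RefSeq windows, 68.7% held it.

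The GC box GGGCGG was present in 78.0% of windows, against 53.8% of all later rows and 73.2% of later promoters listed in both, with 45.0% of all RefSeq windows. Of the 9 printed windows, those of GATA3 and CDC14A lacked it. CCAAT was present in 39.8%, against 35.9% and 36.5%, with 34.6% of all RefSeq windows. TATAAA was present in 12 windows (5.08%), among them INSM2, ROCK2, APP and BTG1, against 10.7% and 3.63%, with 11.5% of all RefSeq windows. The ETS-type motif CCGGAAG was present in 17.8%, against 10.4% and 17.6%, with 10.3% of all RefSeq windows. A match is a run of letters, not a measured binding site.

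All 300 genes were protein-coding by RefSeq, as were 2716 of 2716 matched later promoters listed in both. The median gene span was 59.5 kb (quartiles 19.9 and 155.9), against 33.5 kb for all later rows and 44.6 kb for later promoters listed in both. The first 300 genes of the N-Myc-binding table had a median span of 25.8 kb. The median number of RefSeq transcripts per gene was 5, as it was for later promoters listed in both.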

How the data were processed

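The members, gene lists and settings were chosen with earlier results of these data known. The submitters' processing notes name BWA 0.7.12, bedtools and build hg19, with no role for each. No source used here gives the peak caller or its threshold. Per the file headers, the deposited tables hold the names of genes with an H3K4me3 peak within 1 kb of the TSS for each library, and a TSS interval with a gene name per promoter, in no measured unit. Depth is unknown. IgG and input libraries were not used here.

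A promoter counted as listed where its gene name occurred in a library's list, and the second coordinate was taken as the 1-based TSS. Chromosome arms were split at approximate hg19 centromere positions set by hand, which do not come from the deposited files. RefSeq genes (GRCh38.p14) were matched by symbol or synonym for 300 of 300 members, and 236 had a promoter window. Gene lists match symbols by pattern or name. No test was made, because each siRNA had 1 H3K4me3 library and members were chosen by row. Exact Clopper-Pearson 95% intervals run over promoters, cover counting error only, and treat promoters as independent. An interval of a difference combines those of its parts, and was tried on simulated data. The simulation drew promoters independently, so it does not show how the interval holds for close pairs or for much lower shares. Genes named are rows 1 to 10, the 5 rows on each side of the edge, adrenergic and catecholamine members, up to 8 members of other lists in row order, members within 100 kb of each other, and those with the most and fewest CpG, except some that are not reported here. The last 2 ZNF genes, the genes named for a motif, those of the 10 Mb windows and those outside rows 1 to 300 were chosen after the values were seen, as were USP37, USP3, GNAI1, CAMK1D, ASH1L and MDH2. Software was matplotlib 3.10.9, scipy 1.17.1, pandas 2.3.3, numpy 2.4.6 and Python 3.11.15.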

Additional observations from a re-analysis of the deposited data

How the results depend on the processing

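No paired analysis was possible because each siRNA had 1 H3K4me3 library, and for the same reason no replicate could be left out. Differences are rows 1 to 300 minus later rows. The share differences for 8p and 9q (added after the data were seen) stayed within their intervals when the first 200, 400 or 600 rows were taken, against the next 300 rows, among promoters listed in both, on autosomes, without uncharacterised names and without promoters that have a neighbour within 2 kb. Against the next 300 rows, however, their intervals span 0, at 3 percentage points (-0.673 to 6.79) for 8p and 4 (-0.123 to 8.23) for 9q. The values for transcription factors and neuronal genes stayed within their intervals under the same settings, but some settings moved the interval off 0. That was so for transcription factors among promoters listed in both (3.22, interval 0.345 to 6.91), and for neuronal genes with 400 rows (-3.16, interval -5.21 to -0.456) and 600 rows (-2.53, interval -4.40 to -0.262). With 600 rows the interval for 17q also lay off 0 (1.89, interval 0.222 to 4.00). So did that for promoters with no other listed promoter within 10 kb (-3.32, interval -6.23 to -0.765). Against the next 300 rows the 17q difference was -1.33 percentage points, the difference in promoters with no other listed promoter within 10 kb was 1.67 percentage points (-2.28 against all later rows) and the CpG difference was 1.50. Among promoters listed in both, the CpG difference was 4.50, against 12.5 for all later rows, because later promoters without calls are left out. The difference in GC content from all later rows was 8 percentage points. For lone promoters the sign depended on the distance. A limit of 2 kb gave -4.81 percentage points (interval -8.45 to -2.03) and one of 50 kb gave 6.04 (interval 0.313 to 11.4), and leaving out promoters with a neighbour within 2 kb gave 2.45. The difference in E-box share was 2.36 percentage points for CACGTG and -11.4 for CANNTG. With the first 600 rows the adrenergic share difference (added after the data were seen) was 1.63 percentage points, against 3.65 for 300 rows. For the share listed in both libraries, the settings against the next 300 rows and among promoters listed in both give no separate value, and the other settings left it at 100%. Without sequencing depth, an unlisted gene cannot be told apart from a weakly covered one.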
